A study of Mus musculus with 2 samples.

Results

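Semaphorins, Slits and netrins are guidance ligands that steer growing axons, and the plexins, neuropilins, Robo proteins, Dcc, neogenin and Unc5 proteins are their receptors. The genes described here are the 43 members of these families on a fixed list, 25 ligands and 18 receptors, out of 20655 named genes on the array. All 43 were found by matching the RefSeq transcript of each probe to a mouse symbol, with 56 probes in all. They were followed in lens RNA from newborn mice at postnatal day 0. The knockout group is lens labelled as Foxp1 KO, and the control group is lens of litter mates labelled wild-type. Loss of Foxp1 in other tissues was not measured here. Foxp1 is a forkhead transcription factor. Both groups are of a C57BL/6 mixed background, and the treatment field of both names Foxp1-flox/flox and Pax6-L-Cre, so the genotype and source labels set the groups. There was 1 array for each genotype (2 arrays in all), an Agilent 1-colour design with Cy3. Neither the sex nor the number of animals behind each RNA is given in the labels.

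Semaphorins bind plexins, whose inner part acts on small GTPases and loosens the attachment of a cell to its matrix. The secreted class 3 semaphorins mostly need a neuropilin to reach a plexin. The membrane semaphorins bind plexins directly, for instance Sema4c with Plxnb2, Sema4d with Plxnb1 and Sema7a with Plxnc1. Slits signal through Robo receptors, and netrins attract through Dcc and repel through Unc5 proteins. In the eye these families guide retinal ganglion cell axons and growing vessels, and in chick Sema3a made by the lens delays the entry of nerves into the cornea.

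Foxp1, the targeted gene, read 970, 464 and 38.4 with its 3 probes on the knockout array, against 3460.2, 1677 and 97.5 on the wild-type array. The log2 differences were -1.82, -1.84 and -1.33. The position of the probes against the deleted exons was not analysed here. The lens identity of both samples was visible in the crystallin gene Cryaa, the membrane protein gene Mip and the other lens markers, all 7 of which were measured, with differences between -0.25 and 0.34. At the 75th percentile, the processed signals were 279.9 for knockout and 283 for wild-type, but the median was 23.6 on the knockout array and 50.2 on the wild-type array. Dim E1A spike-in RNAs, which are added in known amounts, also read lower on the knockout array. One of them, with 37.6 on the knockout array and 82.3 on the wild-type array, differed by -1.12, and another, with 6.64 against 54.8, by -3.14. The 7 spike-ins above a signal of 250 on the wild-type array lay between -0.20 and 0.01. Each difference below is log2 of the processed signal minus the 75th percentile of its array, knockout minus wild-type. With 1 array per genotype no test could be run, so no p-value appears, and 2-fold (1 on the log2 scale) was used as a fixed size.

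Most of the guidance genes read nearly alike on the 2 arrays. A gene counted as measured when at least 1 probe was well above background on both arrays, and 37 of the 43 members were. None of these reached 2-fold on the higher side (0 of 37, where 1% of all measured genes did). Sema6b and Sema4f, 2 of the 37, were at least 2-fold lower (5.89% of all measured genes), and the other 35 lay between the limits. After loess, a correction for the dependence of the difference on signal, 0 of the 37 passed 2-fold in either direction (2.84% of all measured genes higher and 2.03% lower), and 19 lay below 0 (42.5%). Within 0.25 of 0 lay 21 of the 37 (57.6% of all measured genes), and within 0.5 of 0 lay 28 (79.1%). The median difference was -0.17 for the 20 measured ligands and -0.03 for the 17 measured receptors, beside 0.0043 for all 14254 measured genes. Of the ligands 14 lay below 0 and 6 above, and of the receptors 9 lay below and 8 above, where 49.3% of all measured genes lay below 0. Spot noise, taken from probes printed many times, was 0.083 on the log2 scale for the brightest of 5 signal classes and 0.29 for the dimmest. A difference of more than 3 spot SDs was found for 11 of the 37 members (25.3% of all measured genes). That noise does not include differences between animals or dissections, and in whole lenses fewer cells of a type and less RNA per cell cannot be told apart.

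**Figure D1:**
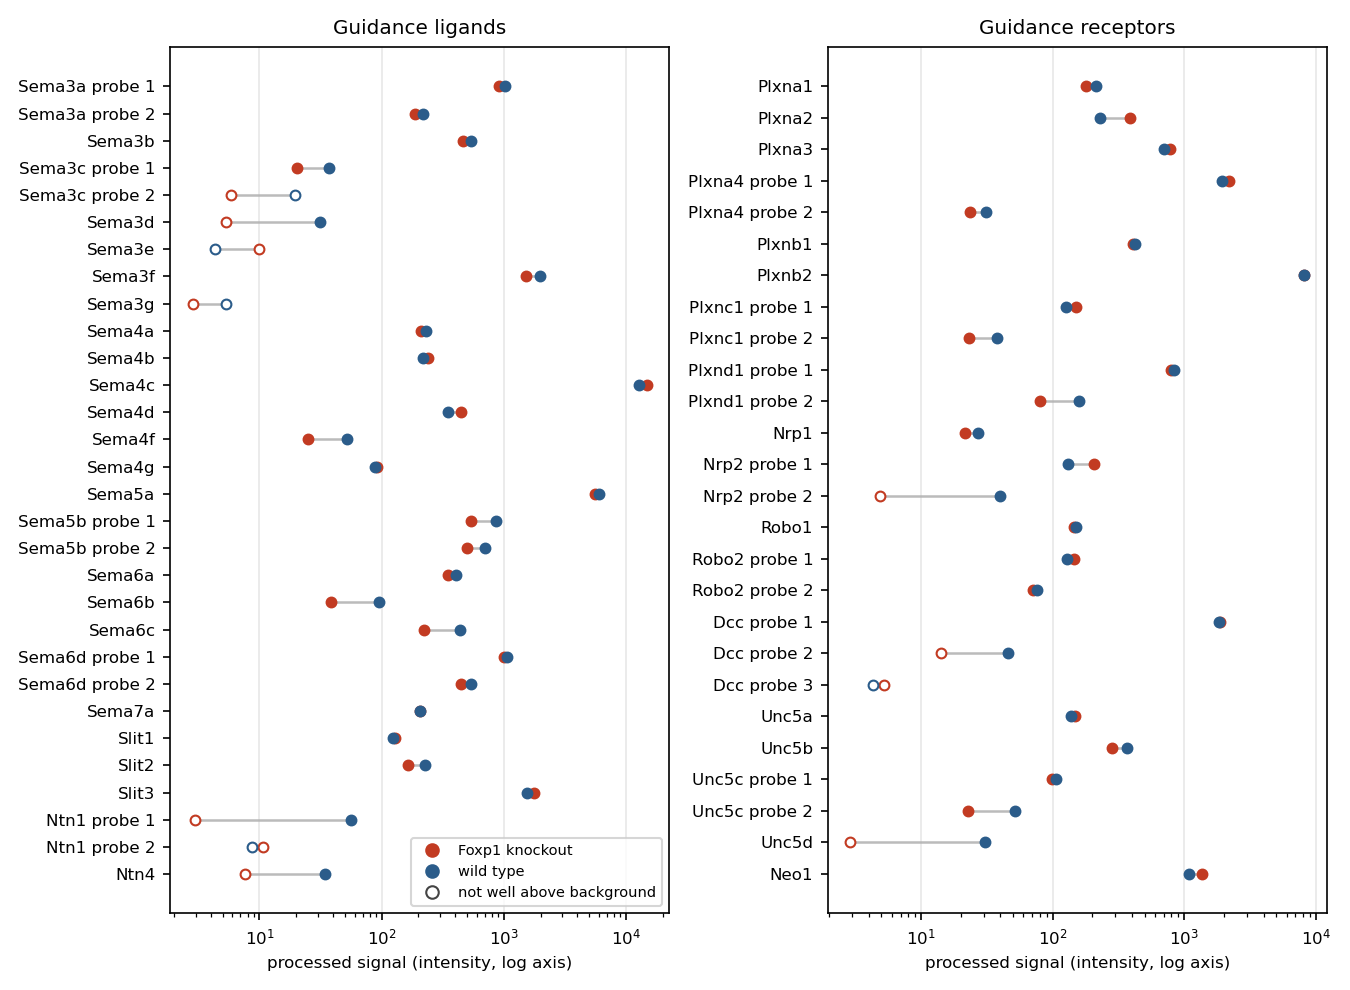
Processed signal of each probe of the 43 guidance genes on the knockout array (red) and on the wild-type array (blue), on a log axis, with ligands left and receptors right. Open circles were not well above background. Most pairs of points nearly coincide, and the widest pairs are those in which the knockout reading was not well above background, as for Ntn1 (3.0 on the knockout array against 55.9 on the wild-type array).

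Among the secreted class 3 semaphorins, which repel axons and vessels through neuropilins, 4 of 7 were measured. All 4 read lower on the knockout array, none by 2-fold, where 49.3% of all measured genes lay below 0. Sema3a, the founding repellent of the class, read 912 and 189 with its 2 probes on the knockout array, against 1026 and 218 on the wild-type array, with close differences of -0.16 and -0.20. Sema3f, which acts through Nrp2, read 1510.1 on the knockout array and 1976.5 on the wild-type array, a difference of -0.38 with a spot SD of 0.12. Sema3b read 461 on the knockout array and 534 on the wild-type array, a difference of -0.20. Sema3c, which guides cardiac neural crest cells in mouse, was dim. One of its probes read 20.3 on the knockout array and 37.1 on the wild-type array, a difference of -0.86 that turned to 0.16 after loess. The other Sema3c probe was above background on neither array.

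Sema3d read 5.33 on the knockout array, not well above background, and 31.1 on the wild-type array, a signal at least 2.54-fold lower as a bound. A spike-in at 6.64 on the knockout array and 54.8 on the wild-type array also read lower, so this bounds the signal and not the RNA amount. For such a bound the bright reading is divided by the dim reading or, where that is larger, by the smallest signal that passed the background flag on the dim array, which was 12.1 for knockout, after scaling both. Sema3e and Sema3g, which act on vessels, were above background on neither array (2 of 43 members, beside 19.8% of all named genes), with signals from 2.86 to 9.94. The class 3 genes with clear signal, Sema3a, Sema3b and Sema3f, lay below 0 by at most 1.30-fold, where 32.5% of all genes of that signal range lay below 0. Sema3a and Sema3b, with spot SDs of 0.10 and 0.12, were within 3 spot SDs of 0.

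All 13 membrane semaphorins were measured, with 4 above 0 and 9 below, where 49.3% of all measured genes lay below 0. Of the 7 below the median signal 5 lay below 0 (66.1% of all such genes), and of the 6 others 4 did (32.5%). In class 4, Sema4c, the ligand of Plxnb2, read 14738 on the knockout array and 12779 on the wild-type array, a difference of 0.22 with a spot SD of 0.083. Sema4d, the Plxnb1 ligand also known as a lymphocyte surface protein, read 447 on the knockout array and 351 on the wild-type array, a difference of 0.36 with a spot SD of 0.12. Both lay above 0 in all 9 settings of scaling and filtering that were tried, with 0.09 for Sema4c and 0.24 for Sema4d as the lowest. Each has 1 probe, so the settings that filter or choose probes could not move them. Scaling by the array median, 1 of the 9, moved all genes up by 1.08, and 36 of the 37 measured members lay above 0 under it. Sema4b differed by 0.13 (239 on the knockout array and 219 on the wild-type array), and Sema4g by 0.07 (92.4 on the knockout array and 88.9 on the wild-type array), each less than its spot SD of 0.17. Sema4a, which supports photoreceptors in mouse retina, read 211 on the knockout array and 230.4 on the wild-type array, a difference of -0.11. Sema4f read 24.9 on the knockout array and 51.7 on the wild-type array, 2.06-fold lower at signals where the spike-ins also read lower. Its difference of -1.04 became -0.26 after loess and 0.0038 under quantile normalization.

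Class 5 semaphorins carry thrombospondin repeats, and in mouse retina they keep neurites within their layers. Sema5a read 5533 on the knockout array and 5976 on the wild-type array, a difference of -0.10. Sema5b read lower with both of its probes, 539 and 497 on the knockout array against 868 and 697 on the wild-type array. The probe differences were -0.68 and -0.48, and their mean of -0.58, with a spot SD of 0.082, corresponds to a 1.49-fold lower signal. Of the 8 members with 2 measured probes, Sema5b was the only one with both probes more than 0.25 from 0 on the same side. Its mean lay between -0.70 and -0.58 under all settings except scaling by the array median, which moved all genes up by 1.08 and placed Sema5b at 0.51.

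Class 6 semaphorins bind plexin A receptors, and all 4 were on the lower side, as were 49.3% of all measured genes. Sema6c read 222 on the knockout array and 438 on the wild-type array. Its difference of -0.97, with a spot SD of 0.12, was 1.95-fold, just short of the limit, and was also -0.97 after loess. Sema6b read 38.4 on the knockout array and 95.5 on the wild-type array, 2.47-fold lower at -1.30 with a spot SD of 0.29. The spike-in at 37.6 on the knockout array and 82.3 on the wild-type array differed by nearly as much, -1.12. The Sema6b difference became -0.87 after loess and -0.65 after normexp correction, and it was below 0 in all 8 settings that gave a value. Sema6b has 1 probe, so the settings that filter or choose probes could not move it. Sema6a, which acts through Plxna2 and Plxna4 in mouse, read 348 on the knockout array and 405 on the wild-type array, a difference of -0.21. Sema6d, which acts through Plxna1 in chick heart development, read 995 and 448 on the knockout array and 1053 and 538 on the wild-type array, with differences of -0.07 and -0.25. Sema7a, anchored by a lipid and bound by Plxnc1 and integrins, read 206 on the knockout array and 208 on the wild-type array, a difference of -0.0029.

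The promoters of the 4 membrane semaphorins with the lowest differences are shown because Foxp1 is a DNA-binding protein of the forkhead family and these genes are the lowest of the membrane class. The windows run from 250 bases before to 50 after the start of the transcript, 5′ to 3′ along the gene, from RefSeq on build GRCm38.p6. Capitals mark the short forkhead letters TGTTT or their reverse complement AAACA. Sema6b lies on the minus strand at chr17:56133803-56134102, Sema4f on the minus strand at chr6:82939720-82940019, Sema6c on the plus strand at chr3:95160170-95160469 and Sema5b on the plus strand at chr16:35541112-35541411. Sema6b and Sema6c each have a further window that is not shown.
Sema6b: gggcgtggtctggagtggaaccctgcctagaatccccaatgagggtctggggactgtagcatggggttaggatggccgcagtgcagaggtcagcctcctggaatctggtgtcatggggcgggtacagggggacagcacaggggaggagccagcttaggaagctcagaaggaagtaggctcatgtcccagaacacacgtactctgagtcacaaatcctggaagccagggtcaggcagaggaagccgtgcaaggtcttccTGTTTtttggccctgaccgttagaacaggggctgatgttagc
Sema4f: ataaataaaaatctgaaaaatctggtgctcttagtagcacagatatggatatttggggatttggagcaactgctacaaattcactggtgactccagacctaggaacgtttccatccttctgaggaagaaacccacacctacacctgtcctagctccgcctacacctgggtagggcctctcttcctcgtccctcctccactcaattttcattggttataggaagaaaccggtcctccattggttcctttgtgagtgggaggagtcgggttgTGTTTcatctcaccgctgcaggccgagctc
Sema6c: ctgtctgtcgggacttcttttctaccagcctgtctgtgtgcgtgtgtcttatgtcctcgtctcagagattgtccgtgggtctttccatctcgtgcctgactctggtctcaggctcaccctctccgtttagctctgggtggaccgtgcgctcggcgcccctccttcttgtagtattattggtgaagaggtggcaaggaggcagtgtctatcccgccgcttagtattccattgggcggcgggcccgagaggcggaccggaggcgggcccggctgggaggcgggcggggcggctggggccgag
Sema5b: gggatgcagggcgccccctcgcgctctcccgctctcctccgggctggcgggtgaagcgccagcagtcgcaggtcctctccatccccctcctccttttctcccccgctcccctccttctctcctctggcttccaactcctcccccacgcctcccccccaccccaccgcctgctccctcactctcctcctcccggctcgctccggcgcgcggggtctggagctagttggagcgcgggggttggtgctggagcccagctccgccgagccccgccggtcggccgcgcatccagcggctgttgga

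The longer forkhead core TGTTTAC, searched on both strands (GTAAACA on the other), was in none of the 47 promoter windows of the 34 members that the table holds (0 of 47), and in 3.65% of all 32851 windows. The shorter letters TGTTT, which the longer core contains and which were added after the longer search, were in 14 of the 47 member windows (29.8%) and in 50.5% of all windows. In the windows printed above, Sema6b has 1 such match 9 bases into the transcript and Sema4f 1 match 21 bases into it. The printed windows of Sema6c and Sema5b have 0. The further windows of Sema6b and Sema6c, which are not shown, also have 0. The member windows had a median GC content of 64.7%, against 52.7% for all windows, and these letters are rich in A and T. A match here is a string of letters and was not tested as a binding site.

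Slits are large secreted repellents. Slit3, which is broad outside the nervous system, read 1760.4 on the knockout array and 1557 on the wild-type array, a difference of 0.19. Slit2, a repellent of retinal axons, read 164 on the knockout array and 226 on the wild-type array, a difference of -0.45 with a spot SD of 0.17. Slit1 read 129 on the knockout array and 125 on the wild-type array, a difference of 0.06. The 3 Slit genes thus lay on both sides of 0, none near 2-fold.

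Both netrins were readable on the wild-type array alone. Ntn1, the classic attractant of commissural axons, read 3.0 on the knockout array and 55.9 on the wild-type array with 1 probe. By the bound above, its signal was at least 4.57-fold lower. Its other probe, at 10.6 on the knockout array and 8.62 on the wild-type array, was above background on neither. Ntn4, a laminin-like netrin of basement membranes, read 7.57 on the knockout array and 34.5 on the wild-type array, a signal at least 2.82-fold lower. Together with Sema3d and the receptor gene Unc5d, these make 4 of 43 members above background on the wild-type array only (8.76% of all named genes). All 4 had wild-type signals between 30.6 and 55.9, in the range of the spike-in that read 6.64 on the knockout array and 54.8 on the wild-type array. Of all named genes above background on the wild-type array only, 93% were at least 2-fold lower by the same bound.

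**Figure D2:**
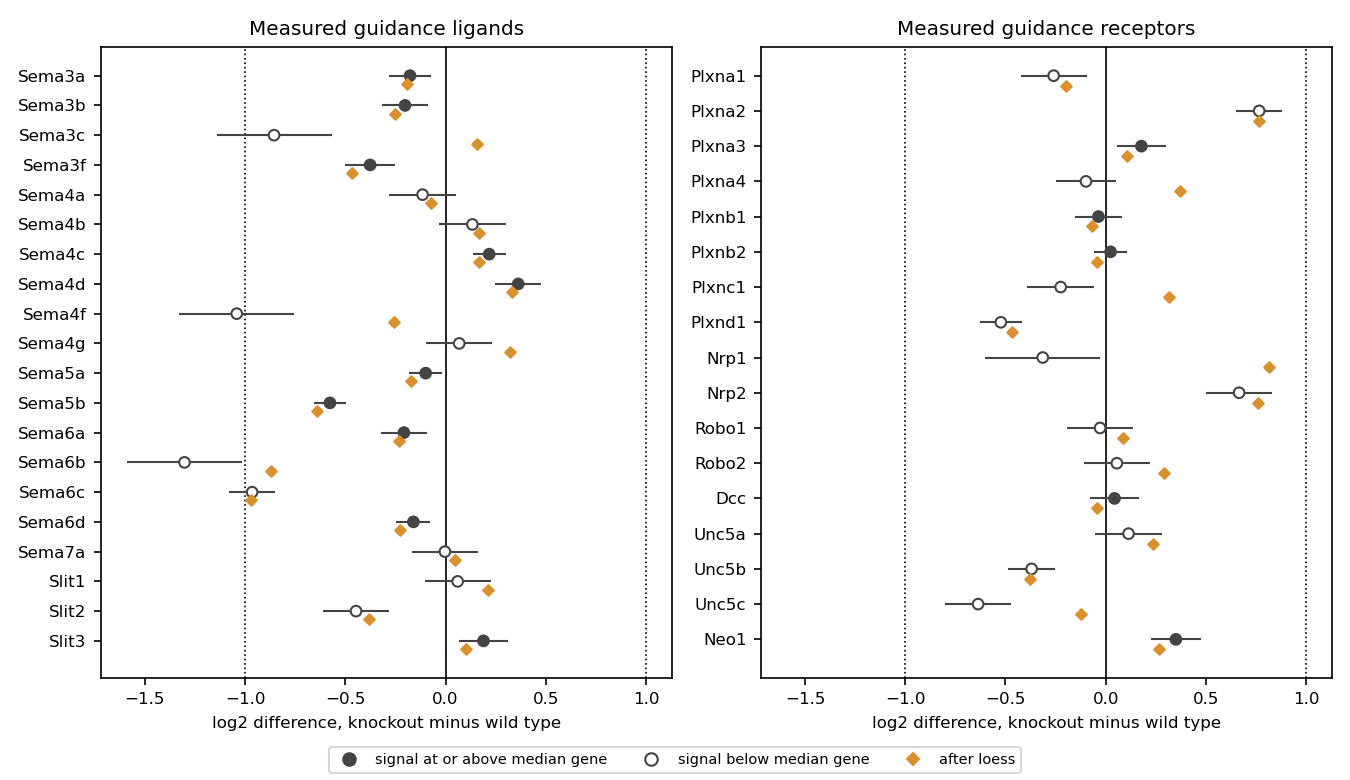
Log2 difference, knockout minus wild-type, of the 37 measured guidance genes, with the spot SD as bars. Filled points are genes at or above the median signal of measured genes, open points are below it, diamonds give the value after loess, and dotted lines mark 2-fold. Sema6b and Sema4f lie beyond the lower line and move inside it after loess, and Sema5b, Sema6c, Plxna2 and Nrp2 hold their place.

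Of the plexins all 8 were measured, 3 above 0 and 5 below, where 49.3% of all measured genes lay below 0. Among the 5 plexins below the median signal 4 lay below 0 (66.1% of all such genes). Plxna2, a receptor for class 6 semaphorins and a partner of neuropilins, had the highest difference of the list. It read 384 on the knockout array and 228 on the wild-type array, 1.70-fold higher at 0.77 with a spot SD of 0.12. The lowest of the 9 settings gave 0.62. Plxna2 has 1 probe, so the settings that filter or choose probes could not move it, and the array median moved all genes up by 1.08. Plxna1 read 178 on the knockout array and 215 on the wild-type array, a difference of -0.26. Plxna3, a receptor for Sema3f through Nrp2, read 781 on the knockout array and 696 on the wild-type array, a difference of 0.18. Plxna4, used by Sema3a and Sema6a, read 2184 on the knockout array and 1947 on the wild-type array with its bright probe, a difference of 0.18. The dim Plxna4 probe read 23.7 on the knockout array and 31.0 on the wild-type array, a difference of -0.37. Plxna2 was the only plexin A gene more than 0.5 from 0.

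The promoter window of Plxna2, on the plus strand at chr1:194619579-194619878, is shown for comparison with the lower genes above. It held 0 matches to TGTTT on either strand.
Plxna2: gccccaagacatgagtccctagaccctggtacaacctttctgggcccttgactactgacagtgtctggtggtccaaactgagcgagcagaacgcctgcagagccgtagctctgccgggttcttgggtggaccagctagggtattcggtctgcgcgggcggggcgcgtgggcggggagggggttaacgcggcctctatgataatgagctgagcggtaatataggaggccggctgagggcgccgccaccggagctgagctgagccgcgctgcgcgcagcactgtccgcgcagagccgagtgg

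The plexin B receptors of class 4 semaphorins read almost the same on both arrays. Plxnb2, the Sema4c receptor, read 8146 on the knockout array and 8075 on the wild-type array, a difference of 0.02 with a spot SD of 0.083. Plxnb1, the Sema4d receptor, read 408 on the knockout array and 422 on the wild-type array, a difference of -0.04. Their ligands Sema4c and Sema4d had the values of 0.22 and 0.36 given above. Plxnc1, the Sema7a receptor, read 151 on the knockout array and 127 on the wild-type array with its bright probe (0.26), and 23.1 on the knockout array and 38.1 on the wild-type array with its dim probe (-0.71). Plxnd1, the vessel receptor for Sema3e, read 793 on the knockout array and 832 on the wild-type array with its bright probe (-0.06). Its dim probe read 79.7 on the knockout array and 159.6 on the wild-type array (-0.99), so the gene mean of -0.52 averages unlike probes.

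Neuropilins are the binding partners through which class 3 semaphorins reach plexins. Nrp1, the Sema3a receptor, read 21.6 on the knockout array and 27.0 on the wild-type array, a difference of -0.31 with a spot SD of 0.29. Its sign depended on the setting, with 0.82 after loess and 1.03 under quantile normalization. Nrp2, the Sema3f receptor, was read by probes for different transcripts that disagreed. One read 208 on the knockout array and 132 on the wild-type array, 1.59-fold higher at 0.67 with a spot SD of 0.17. The other read 4.92 on the knockout array, not well above background, and 39.7 on the wild-type array, at least 3.25-fold lower by the bound above. Its difference was -3.00, and the spike-in at 6.64 on the knockout array and 54.8 on the wild-type array differed by -3.14. Whether the 2 transcripts differ was not tested. With no filter on dim probes, the mean of both Nrp2 probes was -1.17.

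Robo receptors, which bind Slits, differed little. Robo1 read 146 on the knockout array and 150.3 on the wild-type array, a difference of -0.03. Robo2 read 146 and 70.6 on the knockout array and 128 and 75.6 on the wild-type array, with differences of 0.20 and -0.09. All 3 values were under 3 spot SDs, where the SD was 0.17 for Robo1 and the brighter Robo2 probe and 0.29 for the dimmer one.

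Among the netrin receptors, Dcc, the attractant receptor, read 1865 on the knockout array and 1823 on the wild-type array with its bright probe, a difference of 0.04. A dim Dcc probe read 14.1 on the knockout array, not well above background, and 45.9 on the wild-type array. By the bound it is at least 3.22-fold lower, at signals where the spike-ins also read lower. The third Dcc probe was above background on neither array. Neo1, neogenin, a receptor for netrins and for repulsive guidance molecules, read 1366 on the knockout array and 1080.5 on the wild-type array, a difference of 0.35 with a spot SD of 0.12. Neo1 was above 0 in all 9 settings, with 0.23 as the lowest, but those that filter or choose probes could not move this gene with 1 probe. The Unc5 genes encode repellent receptors. Unc5a differed by 0.11, with 149 on the knockout array and 139 on the wild-type array. Unc5b, the vessel member of the family, read 281 on the knockout array and 366 on the wild-type array, a difference of -0.37 with a spot SD of 0.12. Unc5c read 98.2 on the knockout array and 106 on the wild-type array with its bright probe (-0.10), and 22.9 on the knockout array and 52.1 on the wild-type array with its dim probe (-1.18). After loess these differences were 0.12 and -0.36. Unc5d read 2.91 on the knockout array and 30.6 on the wild-type array, at least 2.50-fold lower, again at signals where the spike-ins also read lower.

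Probes of the same guidance gene differed by their brightness. In 7 of the 8 members with 2 measured probes the dimmer probe gave the lower difference, by a median of 0.42 over the 8, with Sema5b as the exception. Over all 3543 genes with several measured probes the dimmest probe was lower than the brightest in 66.7%, by a median of 0.11. Unc5c, Plxnc1 and Plxnd1 had the widest gaps, 1.08, 0.97 and 0.93. Among the 15 members at or above the median signal of measured genes (350.0), 0 passed 2-fold in either direction, 7 lay above 0 and 8 below, where 0.828% of such genes were at least 2-fold higher, 0.393% at least 2-fold lower and 32.5% below 0. The 10 ligands among them had 7 below 0 and a median of -0.17, and the 5 receptors had 1 below 0, Plxnb1, and a median of 0.04, beside 0.08 for all genes of that signal range. Beyond 3 spot SDs lay 3 of the 15, Sema5b, Sema3f and Sema4d (21.3% of such genes). Of the 22 dimmer members 15 lay below 0 (66.1% of all dimmer genes), and both genes past 2-fold were among these (11.4% of all dimmer genes were at least 2-fold lower and 1.18% at least 2-fold higher).

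**Figure D3:**
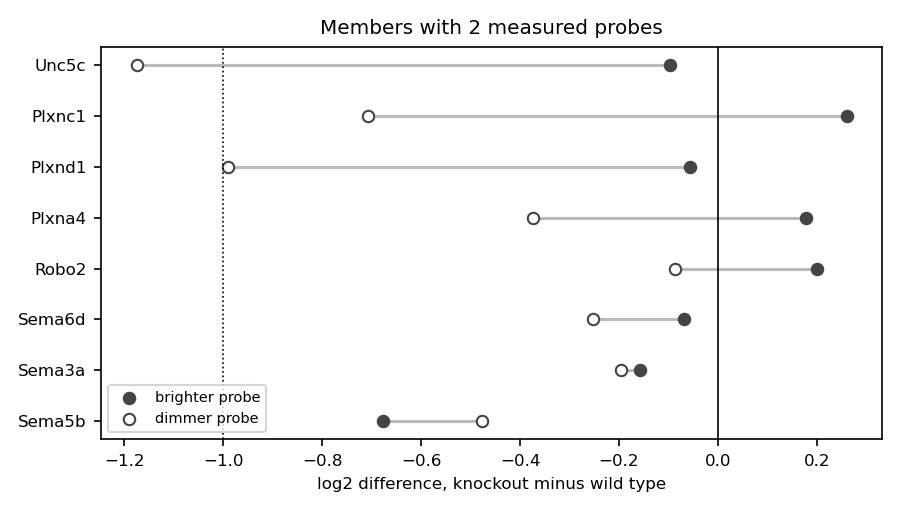
Log2 difference, knockout minus wild-type, of the brighter (filled) and dimmer (open) probe of the 8 guidance genes with 2 measured probes, with a dotted line at 2-fold lower. The dimmer probe lies left of the brighter one in 7 genes, and Sema5b has both probes well below 0.

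**Figure D4:**
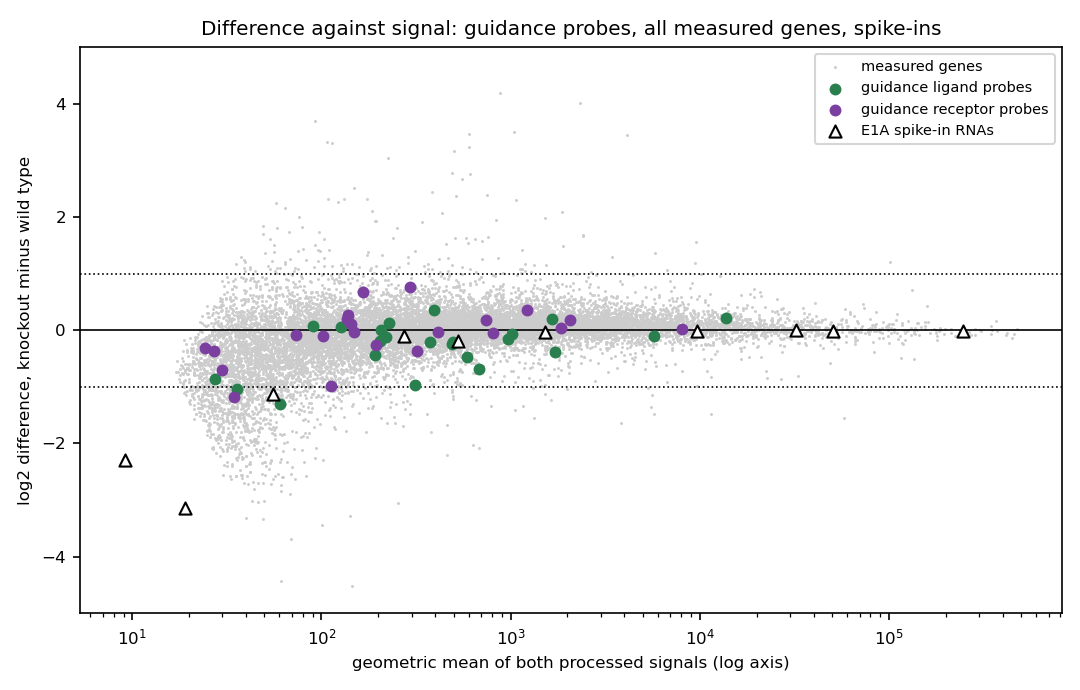
Log2 difference, knockout minus wild-type, against the geometric mean of both processed signals (log axis), for measured guidance probes (green ligands, purple receptors), the 14254 measured genes (grey) and the E1A spike-ins (triangles). Guidance probes lie within the grey cloud, which bends below 0 at low signal as the 3 dimmest spike-ins do.

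Other genes of the same pathways were taken from a further list of 20 ligands, receptors and binding partners. Of the 15 measured, 0 were at least 2-fold higher and 2 at least 2-fold lower, with 5 above 0, 10 below and a median of -0.17. Of these 15 genes 11 were below the median signal, where 66.1% of all genes lay below 0 and 11.4% were at least 2-fold lower, and after loess 7 lay above 0, 8 below and 0 were at least 2-fold lower. Ntn5, a netrin relative, read 15.3 on the knockout array and 43.8 on the wild-type array, a difference of -1.51, and Robo3, which holds back Slit repulsion in commissural axons, read 38.2 on the knockout array and 83.0 on the wild-type array, a difference of -1.11. Plxnb3, a Sema5a receptor, differed by -0.89 and Rgma, a ligand of Neo1, by -0.62. All of these were below the median signal, and became -0.44 (Ntn5), -0.64 (Robo3), -0.40 (Plxnb3) and -0.45 (Rgma) after loess. Of 32 genes that relay signals inside the cell all were measured and 0 passed 2-fold either way, with 18 above 0, 14 below and a median of 0.10. Of all measured genes 49.3% lay below 0, 1% were at least 2-fold higher and 5.89% at least 2-fold lower. Among the 20 relay genes at or above the median signal 7 lay below 0, near the 32.5% of all such genes. Mical1, an enzyme that oxidises actin below plexins, read 995 on the knockout array and 609.95 on the wild-type array, a difference of 0.72. Crmp1, which relays Sema3a signals to microtubules, differed by 0.67 and Arhgef11, an exchange factor bound by plexin B, by 0.53. Fes, a kinase that acts with plexin A, had a mean of -0.60 over probes at -1.07 and -0.13. After loess its mean was -0.30, with the probes at -0.77 and 0.17.

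Several of these families are also used by neurons, vessels and connective tissue that a dissected lens can carry. Of all measured genes, 49.3% lay below 0 and 1% were at least 2-fold higher. All 10 retinal neuron markers were measured and above 0, and 2 of these markers passed 2-fold. The median of the 10 was 0.79, and the signals of all probes of the list summed to 8235 in knockout lens and 5371 in wild-type lens. Plxna2 lay at 0.77, Neo1 at 0.35, Robo2 at 0.06, Robo1 at -0.03, Plxna4 at -0.10 and Unc5c at -0.64. The brighter Nrp2 probe lay at 0.67 and the bright Dcc probe at 0.04. Their dim probes, not well above background on the knockout array, lay at -3.00 (Nrp2) and -1.69 (Dcc probe 2). All 17 measured guidance receptors had a median of -0.03, with 8 above 0 and 9 below. All 8 vascular endothelium markers were measured, 2 above 0 and 6 below, with a median of -0.16. They ran from -1.12 for Emcn to 0.86 for Tek, and 6 of the 8 were below the median signal. After loess 3 lay above 0 and 5 below, with a median of -0.05. Their signals summed to 4062 in knockout lens and 4208 in wild-type lens. Unc5b lay at -0.37 and the Plxnd1 probes at -0.06 (bright) and -0.99 (dim). Of 9 mesenchyme and pericyte markers 6 were measured, 5 of them above 0, and Dcn and Lum were above background on the knockout array only. The list summed to 1567 in knockout lens and 1213 in wild-type lens. The 5 measured macrophage markers all lay below 0 and were all dim, in the range where 66.1% of genes lay below 0. After loess 1 lay above 0, and their median was -0.06, against -0.40 before it. Mrc1 was above background on the knockout array only, and the list summed to 1389 in knockout lens and 1494.5 in wild-type lens. The 5 measured pigment and ciliary epithelium markers lay below 0 as well, with signals summing to 5296 in knockout lens and 5883 in wild-type lens, and Rpe65 was above background on neither. The 4 measured surface epithelium markers, all dim, also lay below 0 before loess and were 2 above and 2 below after it, with a median of -0.50 before and 0.07 after, and with signals summing to 659 in knockout lens and 932 in wild-type lens, and Krt12 was above background on neither. Of the erythroid markers 2 were measured, Hba-a1 and Alas2, both below 0, with signals summing to 8861 in knockout lens and 10676 in wild-type lens. The part of these cell types in the differences of the guidance genes was not tested.

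**Figure D5:**
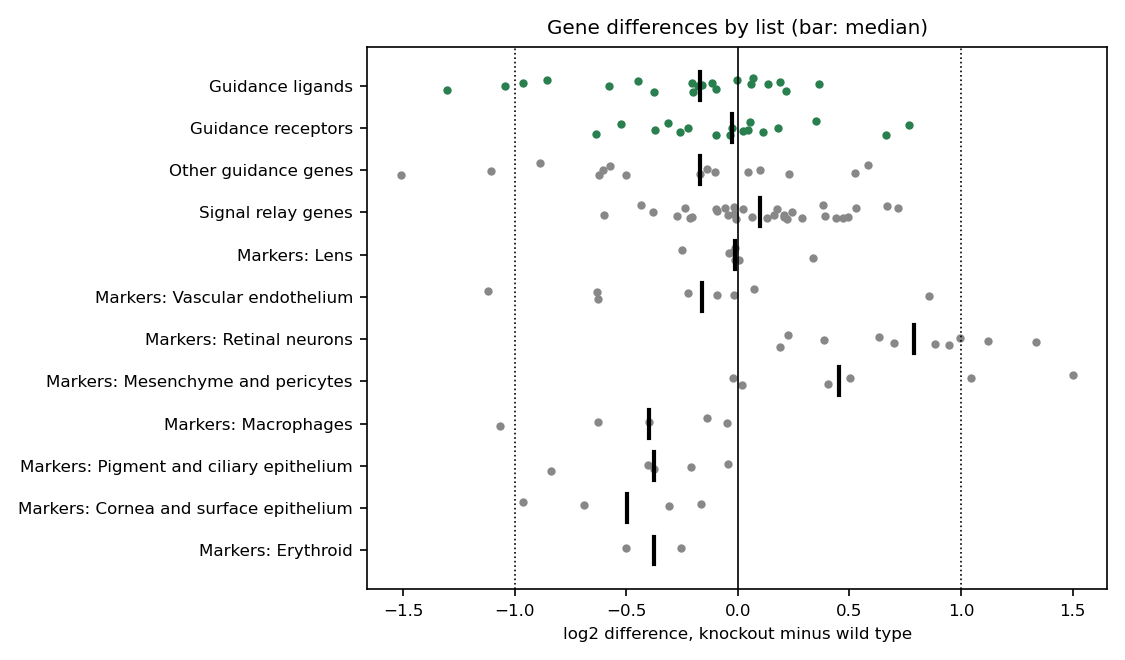
Log2 difference, knockout minus wild-type, of each measured gene of the guidance ligands and receptors (green) and of the other lists (grey), with bars at the medians and dotted lines at 2-fold. The guidance genes spread around 0, and the retinal neuron markers all lie above it with a median of 0.79.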

How the data were processed

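The deposited files hold one linear intensity per spot, from 1 scanned array per genotype. Agilent Feature Extraction 10.7.3.1 made them, per the file headers, with a probe layout on mm9, and its processed signal has background removed and trends across the array corrected, with the lowest values replaced by a small positive number. Flags for outliers, saturation and signal well above background are the authors' deposited values, and no guidance spot was saturated (0 spots).

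Control spots were dropped, as was any spot with an outlier flag on at least 1 array. Log2 processed signal minus the 75th percentile of the array was used, and the mean over the measured probes gave a gene's difference. Probes were named through unversioned RefSeq accessions on GRCm38.p6: of 55655 probes, 27225 received a symbol and 28430 did not. The GRCm38.p6 table served for names only, and its promoter table for sequence. Spot noise is the SD of paired spot differences over 281 probes printed at least 5 times, pooled in 5 signal classes. Each guidance probe was printed once (1 spot), so precision is limited by having 1 array per genotype.

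Of the members, 31 have 1 probe, 11 have 2 and 1 has 3. Every member is reported, and some marker genes are not reported here. Of each further list, up to 4 measured genes with the largest difference are named, and others only beside a count. The members and lists were chosen with earlier results of these data known. Alternatives were scaling by array medians or by the 75th percentile over measured probes, quantile and loess normalization (span 0.3, statsmodels 0.14.6), normexp background correction (limma 3.58.1, offset 50), no filter on dim probes, brighter probes only and the brightest probe of a gene. Normexp was run on the median spot and background pixel signals in place of the planned mean signals. The steps were tested on simulated data.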

Additional observations from a re-analysis of the deposited data

How the results depend on the processing

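The count of 0 guidance genes at least 2-fold higher held under loess, normexp, the 75th percentile over measured probes, the brighter probes alone and the brightest probe of each gene. Quantile normalization gave 1, Nrp1, the run without a filter on dim probes gave 1, Sema3e, which was above background on neither array, and scaling by array medians gave 17. The last scaling moved the median of all genes by 1.08, and 61.5% of all measured genes were then at least 2-fold higher. The count of 2 genes at least 2-fold lower became 0 under array medians, quantile normalization, loess, normexp and the brighter probes alone, 8 of 43 without a filter on dim probes (21.7% of all genes) and 3 with the 75th percentile over measured probes (7.57% of all genes), which moved all genes by -0.12. Both counts are near the share of all genes. The run on brighter probes held 23 of the 37 genes, and the run without a filter added the 6 that were not measured. The cause of the other changes was not tested.

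The ligand median stayed between -0.29 and -0.11 and the receptor median between -0.16 and 0.11, except under array medians, where they were 0.91 and 1.06. Relative to the median of all genes, ligands lay between -0.23 and -0.04. Sema4f turned to 0.041 under array medians and 0.0038 under quantile normalization. No paired analysis was possible because each genotype had 1 array, and for the same reason no array could be left out. Depth is limited by signal over background: spike-ins at wild-type signals of 82.3 and less read lower, with differences of -1.12 and below, and the next, at 285, differed by -0.11. Where between these signals that range ends was not measured.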

Other observations

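The collapsin response mediator proteins, which carry semaphorin signals to the cytoskeleton, were looked at after their values were seen. Crmp1 read 1323 on the knockout array and 839 on the wild-type array, a difference of 0.67. Dpysl2 read 4194 on the knockout array and 3122 on the wild-type array, a difference of 0.44. The bright Dpysl3 probe read 7129.9 on the knockout array and 4432 on the wild-type array, a difference of 0.70, whereas its dim probe, with 22.9 on the knockout array and 50.3 on the wild-type array, gave -1.12. Both Dpysl4 probes lay above 0, at 0.42 and 0.52. Dpysl5 differed by 0.24, with 1765 on the knockout array and 1505 on the wild-type array. Dpysl3 is widely used as a marker of young neurons, and the 10 retinal neuron markers lay above 0 with a median of 0.79. The part of retinal neurons in these values was not tested.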
